A study of Mus musculus with 6 samples.

Results

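The HOX genes of the mouse were followed through 6 RNA-seq libraries of NIH/3T3, an immortalised line of embryo fibroblasts from Swiss albino mice. The members are the 39 protein-coding genes in the files whose GENCODE M21 symbol is Hoxa, Hoxb, Hoxc or Hoxd with a number, out of 54146 gene identifiers, and they were chosen by name, not by level. Wild-type cells (WT) were set beside clone 1 and clone 2, both Mki67-/-, the gene that encodes the proliferation antigen Ki-67, with 2 libraries in each of the 3 groups and no treatment in the labels. Each clone is 1 cell line, and neither the way the clones were made nor the deleted part of the gene is given in the sources used here. Whether replicates were separate cultures is not in the labels, so p-values measure the spread between these libraries, which may be technical. The extraction protocol names 4T1, a mammary tumour line, where titles, sources and tissue labels name NIH/3T3 fibroblasts.

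HOX proteins are homeodomain transcription factors that give cells along the head-to-tail axis their regional identity. The genes lie in clusters in which the order on the chromosome matches the order of expression along that axis, from the anterior paralogue group 1 to the posterior group 13, and genes with the same number in different clusters are paralogues. Adult and cultured fibroblasts keep much of the HOX pattern of the place they came from, with Polycomb proteins keeping the silent part of a cluster off and Trithorax-type proteins keeping the active part on.

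Gene counts summed to 3873249 and 11377172 in WT replicates 1 and 2, and to between 15087148 and 19678782 in the knockout libraries, so the WT libraries set the precision of most comparisons. Levels are given as CPM, with library sizes adjusted by TMM scaling. Mki67 stood at 49.1 and 55.1 CPM in WT, 4.24 and 4.58 in clone 1, and 4.32 and 7.69 in clone 2, so its transcript was low in every knockout library but not absent. The 9 fibroblast markers ranged from 60.1 to 5390 CPM, and their summed level was 9620 and 11200 CPM in WT against 7310 to 8070 in the knockout libraries. In the mean of both clones against WT, 1 was called higher and 5 lower. Of all 13120 tested genes, 16.6% were called higher and 18.2% lower there. Of the 8 epithelial markers, Epcam, Krt19 and Cldn7 were at 0 in every library and none exceeded 0.858 CPM. The 2 endothelial markers, Cdh5 and Pecam1, summed to 4.07 and 4.50 CPM in WT and 1.26 to 1.73 in the knockout libraries, and the 2 blood markers to 19.5 and 15.8 in WT and 11.7 to 18.1 in the knockouts, nearly all of it Cd68. The part of these shifts in the HOX levels was not tested.

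The genes lie in 4 clusters on GRCm38. Hoxa holds 11 genes over 105 kb (chr6:52155590-52260880, minus strand), Hoxb 10 genes over 174 kb (chr11:96194316-96368256), Hoxc 9 genes over 116 kb (chr15:102921103-103036852) and Hoxd 9 genes over 97 kb (chr2:74668310-74765142), the last 3 on the plus strand. RefSeq start-site windows of 300 bases on GRCm38.p6 were matched for 22 of the 39 genes, 24 windows in all. They hold a median of 14.5 CG dinucleotides against 7 in all 32851 windows of the table, and a median of 57.7% G and C against 52.7%.

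The windows below were chosen because the results turn on these genes: Hoxd8 gave the highest level, Hoxa7 is the last gene of the unbroken active stretch of its cluster, Hoxa9 gave no count, Hoxa10 gave none in the knockout libraries, and Hoxa2 separated the clones. Capitals mark matches, on either strand, to the TATA box TATAAA, the CCAAT box CCAAT, the homeodomain core TAATTA, or the PBX-HOX composite TGATTNAT.
Hoxd8, chr2:74704365-74704664, plus strand: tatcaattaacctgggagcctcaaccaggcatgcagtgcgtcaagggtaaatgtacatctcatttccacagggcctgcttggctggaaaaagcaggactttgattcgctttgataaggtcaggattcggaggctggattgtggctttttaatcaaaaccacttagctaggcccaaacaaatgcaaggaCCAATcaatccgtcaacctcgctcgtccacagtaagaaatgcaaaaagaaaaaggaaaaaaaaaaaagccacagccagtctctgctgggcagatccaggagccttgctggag
Hoxa2, chr6:52164782-52165081, minus strand: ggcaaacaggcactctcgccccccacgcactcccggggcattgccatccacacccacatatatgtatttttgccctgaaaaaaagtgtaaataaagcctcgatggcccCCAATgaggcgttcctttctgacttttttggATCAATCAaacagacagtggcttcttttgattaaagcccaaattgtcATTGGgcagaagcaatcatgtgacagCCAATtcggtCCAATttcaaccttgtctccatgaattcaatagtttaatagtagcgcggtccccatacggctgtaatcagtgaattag
Hoxa7, chr6:52218524-52218823, minus strand: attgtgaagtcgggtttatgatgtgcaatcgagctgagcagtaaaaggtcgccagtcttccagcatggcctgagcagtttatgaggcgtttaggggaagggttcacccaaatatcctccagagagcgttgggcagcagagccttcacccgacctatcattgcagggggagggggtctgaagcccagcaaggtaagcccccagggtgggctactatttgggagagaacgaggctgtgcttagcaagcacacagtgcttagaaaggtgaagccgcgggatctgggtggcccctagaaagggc
Hoxa9, chr6:52227321-52227620, minus strand: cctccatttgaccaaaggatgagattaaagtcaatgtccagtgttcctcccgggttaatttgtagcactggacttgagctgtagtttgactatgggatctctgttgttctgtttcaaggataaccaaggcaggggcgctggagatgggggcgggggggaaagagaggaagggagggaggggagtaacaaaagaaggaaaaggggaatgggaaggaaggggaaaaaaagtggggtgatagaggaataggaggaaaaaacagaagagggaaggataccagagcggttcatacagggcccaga
Hoxa10, upstream start, chr6:52240805-52241104, minus strand: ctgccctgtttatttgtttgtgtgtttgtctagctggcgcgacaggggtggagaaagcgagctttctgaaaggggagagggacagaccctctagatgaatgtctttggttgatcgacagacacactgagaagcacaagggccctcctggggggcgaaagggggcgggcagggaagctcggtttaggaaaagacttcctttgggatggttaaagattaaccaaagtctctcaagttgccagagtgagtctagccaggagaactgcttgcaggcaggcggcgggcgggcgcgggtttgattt
Hoxa10, downstream start, chr6:52234890-52235189, minus strand: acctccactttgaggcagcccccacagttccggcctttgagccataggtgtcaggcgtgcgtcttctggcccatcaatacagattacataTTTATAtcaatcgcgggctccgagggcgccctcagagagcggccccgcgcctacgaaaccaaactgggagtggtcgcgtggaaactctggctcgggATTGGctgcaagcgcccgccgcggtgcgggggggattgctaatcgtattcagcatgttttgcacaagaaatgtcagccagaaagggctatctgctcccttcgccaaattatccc
The Hoxa2 window holds 4 CCAAT matches and 1 match to the PBX-HOX composite, whose letters overlap none of the others. The Hoxd8 window holds 1 CCAAT match, and the windows of Hoxa7 and Hoxa9 hold no match to any of the 4 motifs. The Hoxa10 starts differ: the upstream window has none, and the downstream window has 1 TATA box and 1 CCAAT box. Among the 24 HOX windows, CCAAT was present in 15, TATAAA in 4, TAATTA in 2 and TGATTNAT in 2. Over all 32851 windows the shares holding them were 37.4%, 13.6%, 5.29% and 3.22%. A match describes letters in a window and not a bound site.

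Expression stopped short of the posterior ends of the clusters and did not cover every part before them. Hoxb1 and Hoxd1, the anterior ends of their clusters, were at 0, and in Hoxd only Hoxd8 and Hoxd9 were clearly active. By the low-count filter, 18 of the 39 genes had enough counts to be tested: 8 in Hoxa, 5 in Hoxb, 3 in Hoxc and 2 in Hoxd. By position, 5 of the 8 genes of groups 1 to 3, 10 of the 15 of groups 4 to 8 and 3 of the 16 of groups 9 to 13 were tested. The 9 genes of groups 11 to 13 gave 1 count between them over all 6 libraries. Of the 21 genes that were not tested, 13 had 0 counts in every library, which allows a pooled level of up to 0.0365 CPM for each, by counting error alone, and the other 8 had at most 22 counts in total. The 13 are Hoxa9, Hoxa11, Hoxa13, Hoxb1, Hoxb7, Hoxb13, Hoxc11, Hoxc12, Hoxc13, Hoxd1, Hoxd4, Hoxd11 and Hoxd12. Hoxb4 reached the 22, with 1 count in each WT library, 9 and 7 in clone 1, and 1 and 3 in clone 2.

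**Figure D1:**
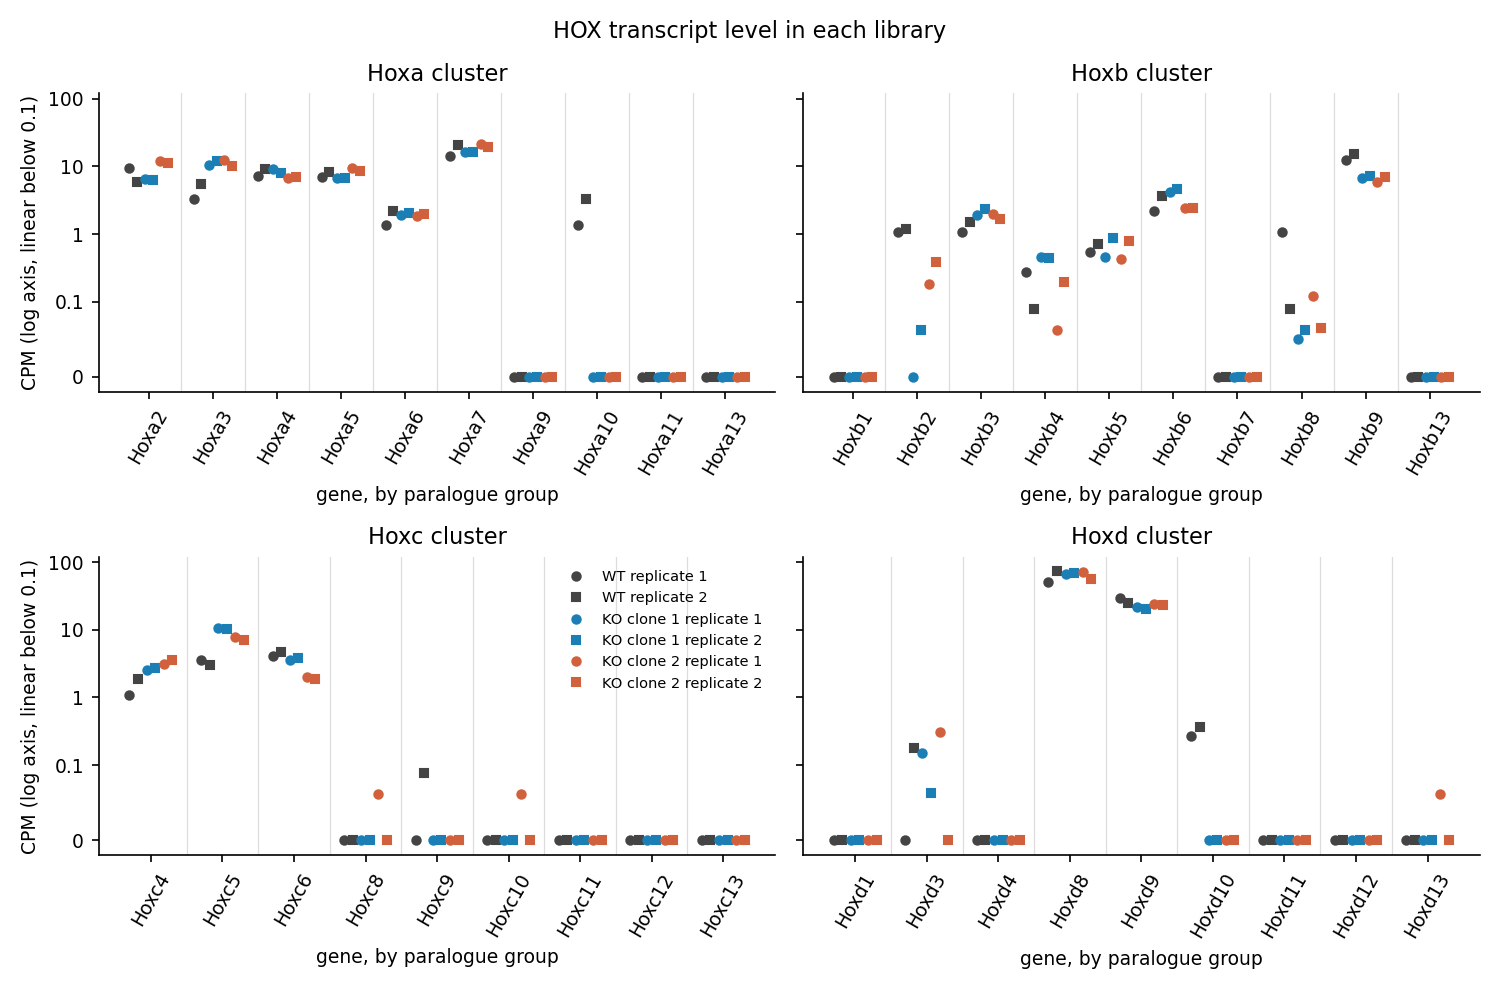
CPM of HOX genes in each library, by cluster and paralogue group, on an axis that is logarithmic above 0.1 CPM and linear below it; black marks are WT, blue clone 1 and orange clone 2, circles replicate 1 and squares replicate 2. Hoxa2 to Hoxa7 form an unbroken active stretch, whereas Hoxb9 and the pair Hoxd8 and Hoxd9 stand beside genes at or near 0.

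The shape of the active part differed between clusters. In Hoxa, all genes from Hoxa2 to Hoxa7 were tested, Hoxa9 was at 0, and Hoxa11 and Hoxa13 were at 0 too. In Hoxb the active genes were not contiguous: Hoxb9 was detected in every library while its neighbours Hoxb7 and Hoxb8 had 0 and 10 counts in all. In Hoxc only Hoxc4, Hoxc5 and Hoxc6 passed the filter, and Hoxc8, Hoxc9 and Hoxc10 had 1 count each. In Hoxd only Hoxd8 and Hoxd9 passed it, Hoxd10 had 5 counts and Hoxd3 had 11, and 4 genes were at 0. Hoxd3 and Hoxd4 share exons on the same strand, so that 37.7% and 47.7% of their exon length is free for counting, and their low counts are uncertain.

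Per kilobase of exon, the scale on which genes can be ranked against each other, Hoxd8 was highest at a mean of 23.6 CPM per kb over the 6 libraries (18.6 to 26.9), followed by Hoxd9 at 11.3 (9.67 to 14.1). Neither range met that of the next gene. Hoxa7 came next at 6.27 (5.00 to 7.35), then Hoxa4, Hoxa2, Hoxa5 and Hoxb9 at 4.96 to 3.55. From Hoxa7 down, each gene's range over the libraries overlapped that of the next, so the order of genes next to each other in that run is not resolved. Genes further apart in the run could be clear of each other, as Hoxa7 was of Hoxb5 (0.155 to 0.316). Hoxb5 and Hoxb2 closed the order of tested genes at 0.228 and 0.138 CPM per kb.

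The summed HOX level overlapped between the groups, whereas those of single clusters did not all do so. All 39 genes together came to 163 and 198 CPM in WT, 181 and 183 in clone 1, and 193 and 174 in clone 2. Hoxd took 46.0% to 50.4% of that sum in every library, and Hoxd8 alone 31.4% to 37.4%. Hoxc came to 8.68 and 9.73 CPM in WT against 16.9 and 17.0 in clone 1 and 13.1 and 12.5 in clone 2, with every knockout library above WT. Hoxb came to 18.7 and 22.8 CPM in WT against 13.8 and 15.8 in clone 1 and 11.04 and 12.57 in clone 2, with every knockout library below WT. Single genes weighed heavily in both: Hoxb9 stood at 12.5 and 15.5 CPM in WT and 5.80 to 7.28 in the knockout libraries. Hoxc5 stood at 3.53 and 2.97 in WT and 7.03 to 10.8 in the knockouts. Other genes went both ways in every knockout library, Hoxc4 and Hoxb3 higher and Hoxc6 and Hoxb2 lower, so neither cluster moved as a whole. By position, groups 9 to 13 stood at 44.2 and 44.6 CPM in WT, 28.7 and 27.9 in clone 1, and 29.97 and 30.15 in clone 2. Groups 1 to 3 stood at 24.4 and 25.0 in WT, 29.2 and 30.2 in clone 1, and 35.8 and 33.9 in clone 2. The closeness of the WT sums hides opposite shifts of their genes between replicates 1 and 2. Hoxd9 was at 30.1 and 25.3 CPM against 12.5 and 15.5 for Hoxb9, and Hoxa2 at 9.50 and 5.95 against 3.26 and 5.58 for Hoxa3. Groups 4 to 8, the largest part at 57.8% to 68.3% of the sum, came to 93.9 and 128 CPM in WT, 123 and 125 in clone 1, and 127 and 110 in clone 2, and overlapped between the groups. These sums carry no test, and WT shares its 2 libraries with both comparisons. In bulk RNA, fewer cells expressing a gene and less RNA per cell cannot be told apart.

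**Figure D2:**
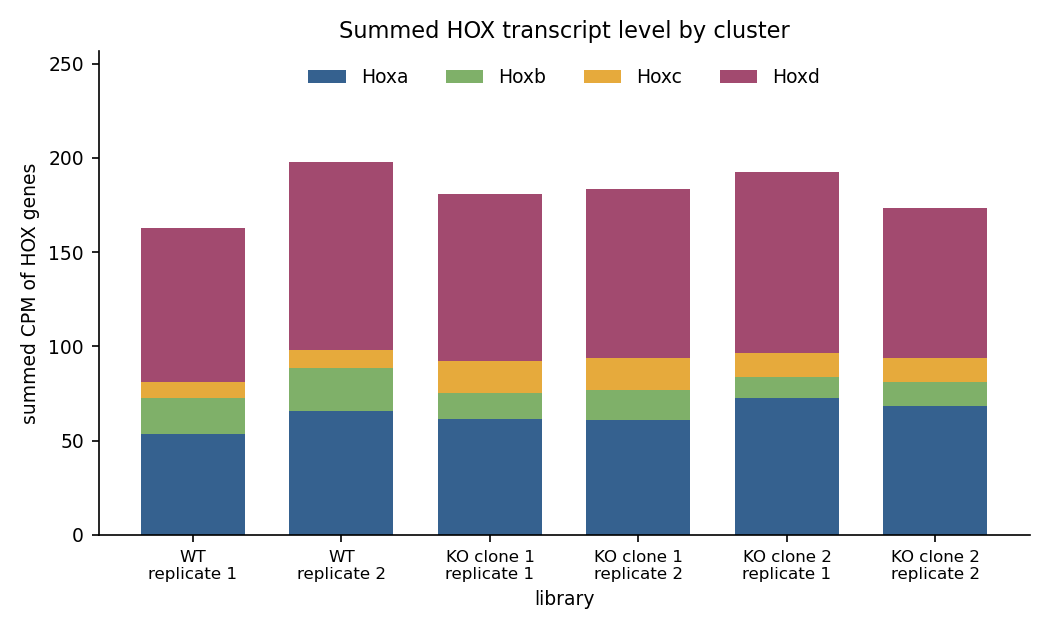
Stacked bars of summed HOX CPM per library, 1 bar a library, coloured by cluster. Total height stays between 163 and 198 CPM, while the Hoxc segment is taller and the Hoxb segment shorter in all 4 knockout libraries than in either WT library.

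Across the tested HOX genes, some rose and some fell, and most of the strongly expressed ones were not called. Against the mean of both clones, edgeR's quasi-likelihood test called 7 of the 18 at an adjusted p below 0.05, where 34.8% of all 13120 tested genes were called. Hoxa3, Hoxc4 and Hoxc5 were called higher (background 16.6%) and Hoxa10, Hoxb2, Hoxb9 and Hoxc6 lower (background 18.2%). Hoxa10 and Hoxb2 passed the low-count filter through the WT libraries alone, 0 of the 4 knockout libraries reaching its level of 0.654 CPM, so they could hardly be called any way but lower, and the counts of lower calls are no support for a direction. The members' median log2 change was -0.001, against 0.005 over all tested genes. In clone 1 alone 5 were called, 2 higher and 3 lower, where the background was 31.7% in all, 15.2% higher and 16.5% lower. In clone 2 alone 8 were called, 4 higher and 4 lower, against 27.4% in all, 12.9% higher and 14.5% lower. Both clones were compared with the same WT libraries, and the counts describe the members only. Hoxa3 and Hoxc5 were called higher, and Hoxa10, Hoxb2 and Hoxb9 lower, in each clone. The share of all tested genes called the same way in both clones was not computed, so these shared calls have no background beside them.

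**Figure D3:**
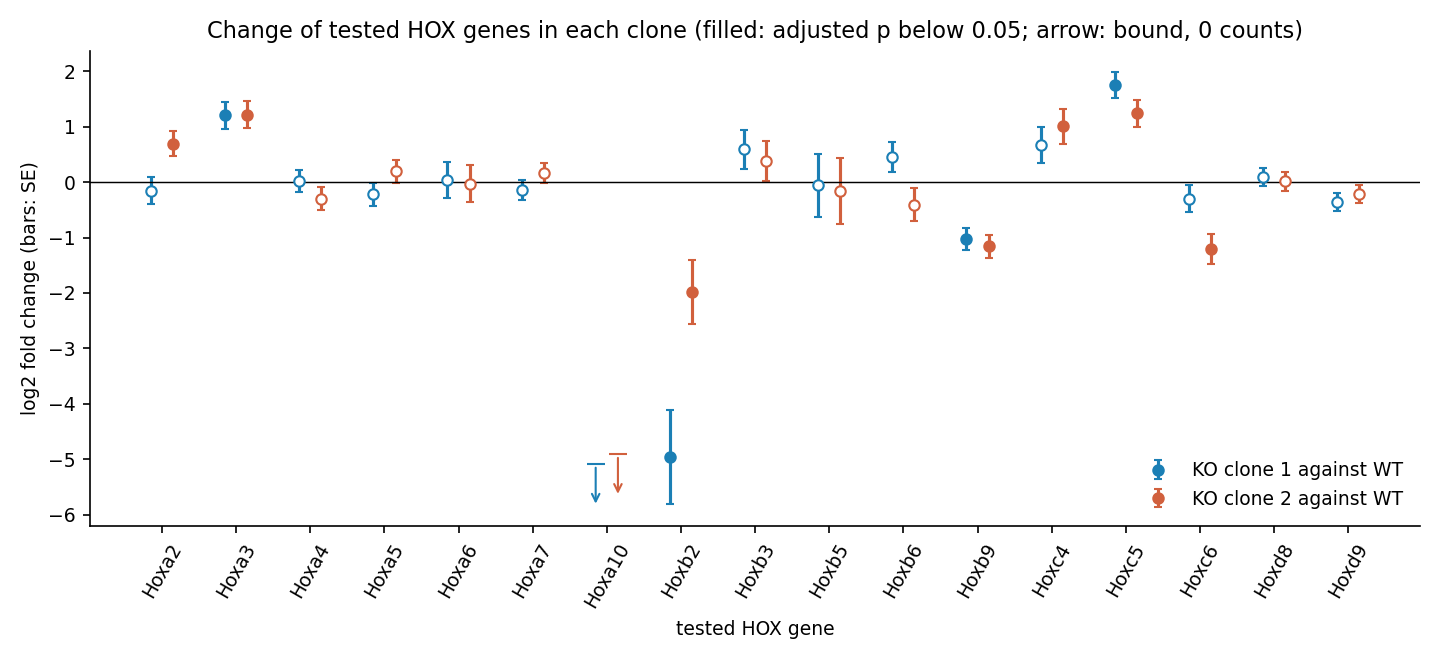
Log2 fold change of tested HOX genes in clone 1 (blue) and clone 2 (orange) against WT, with bars for 1 SE, filled points at an adjusted p below 0.05, and arrows below a bound where the clone had 0 counts. Filled points lie above 0 for Hoxa3 and Hoxc5 and below it for Hoxb2 and Hoxb9 in each clone, and Hoxa10 has an arrow in each.

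Hoxa3, which in the embryo acts in the pharyngeal arches, thymus and parathyroid (chr6:52169062-52213336, ENSMUSG00000079560), rose in both clones. It stood at 3.26 and 5.58 CPM in WT, 10.6 and 11.9 in clone 1, and 12.3 and 10.3 in clone 2. Every knockout library was above both WT libraries. Of the Hoxa3 exon length, 25.4% lies opposite genes on the other strand, and opposite-strand reads were 3.26% of all reads over the gene. The log2 change was 1.21 ± 0.22 (SE) in the knockout mean (adjusted p = 0.00101), 1.21 ± 0.24 in clone 1 (adjusted p = 0.0021) and 1.22 ± 0.25 in clone 2 (adjusted p = 0.00255). Its neighbours did not follow: Hoxa4 was called in no comparison and Hoxa2 only in those of clone 2. Its paralogue Hoxb3 was at 1.08 and 1.53 CPM in WT, 1.92 and 2.39 in clone 1, and 1.97 and 1.69 in clone 2, above WT in every knockout library but not called (adjusted p = 0.274 in the knockout mean), with 52.9% of its exon length lying opposite the antisense gene Hoxb3os.

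Hoxc5, a central HOX gene (chr15:102967443-103017429, ENSMUSG00000022485), showed the largest rise among the members. Its levels were 3.53 and 2.97 CPM in WT, 10.8 and 10.4 in clone 1, and 7.83 and 7.03 in clone 2, with no overlap between any of the groups. The log2 change was 1.49 ± 0.22 in the knockout mean (adjusted p = 1.94e-04), 1.75 ± 0.24 in clone 1 (adjusted p = 9.77e-05) and 1.24 ± 0.24 in clone 2 (adjusted p = 0.00226). The lower level of clone 2 against clone 1 was not called (adjusted p = 0.165). Neither paralogue of group 5 was called: Hoxa5 stood at 7.05 and 8.29 CPM in WT and 6.76 to 9.44 in the knockout libraries, and Hoxb5 at 0.543 and 0.721 in WT and 0.432 to 0.879 in the knockouts. With all libraries thinned to the depth of the shallowest, the clone 2 call of Hoxc5 was lost (adjusted p = 0.141).

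Hoxc4 (chr15:103018934-103036852, ENSMUSG00000075394), the most anterior gene of its cluster, stood at 1.08 and 1.89 CPM in WT, 2.57 and 2.76 in clone 1, and 3.15 and 3.58 in clone 2. All 4 knockout libraries were above both WT libraries, and clone 2 was above clone 1. The log2 change was 0.84 ± 0.30 in the knockout mean (adjusted p = 0.0429) and 1.01 ± 0.32 in clone 2 (adjusted p = 0.0322), and that of clone 1 was not called (adjusted p = 0.135). This is the least stable of the calls. In the knockout mean it was lost without any single library, with adjusted p = 0.155 and 0.0593 without WT replicates 1 and 2, 0.0585 and 0.0852 without clone 1 replicates 1 and 2, and 0.0632 and 0.0923 without clone 2 replicates 1 and 2, and its log2 change was 1.46 without WT replicate 2. In clone 2 it was lost without WT replicate 1 (adjusted p = 0.0912) and without clone 2 replicates 1 and 2 (0.0792 and 0.137), DESeq2 called it in neither (0.148 and 0.135), and limma-voom (0.0581), the fit of both clones as 1 group (0.0689) and thinned counts (0.707) lost it in the knockout mean.

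Hoxa2, which in the embryo sets the identity of the second pharyngeal arch (chr6:52162417-52164831, ENSMUSG00000014704), was the only member called between the clones. It stood at 9.50 and 5.95 CPM in WT, 6.46 and 6.40 in clone 1, and 12.1 and 11.1 in clone 2. Both clone 2 libraries lay above the other 4, and the WT libraries spanned the clone 1 values. Clone 2 exceeded clone 1 by 0.85 ± 0.20 on the log2 scale (edgeR, adjusted p = 0.0319). In that comparison 3.54% of all tested genes were called, 1.18% higher and 2.36% lower. At an unadjusted p below 0.05 there were 6 of the 18 members, 3 higher and 3 lower. The share of all genes at that looser threshold was not computed, so the 6 cannot be set against 3.54%. Against WT the Hoxa2 change was 0.69 ± 0.23 in clone 2 (adjusted p = 0.0375), -0.15 ± 0.24 in clone 1 (adjusted p = 0.66) and 0.27 ± 0.21 in the knockout mean (adjusted p = 0.348). The clone 2 call against WT was lost without WT replicate 2 (log2 0.29, adjusted p = 0.497), without clone 2 replicate 1 (0.196) and without clone 2 replicate 2 (0.0954). Between clones it was lost without clone 1 replicate 1 (0.167), clone 1 replicate 2 (0.114), clone 2 replicate 1 (0.255) and clone 2 replicate 2 (0.161), and DESeq2 called it in neither comparison (0.108 and 0.076).

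Hoxb6 and Hoxc6, both of group 6, were lower in clone 2 than in clone 1 without passing the adjusted threshold. Hoxb6 was at 2.17 and 3.69 CPM in WT, 4.19 and 4.71 in clone 1, and 2.47 and 2.41 in clone 2. Its clone difference was -0.86 ± 0.24 (adjusted p = 0.0749), and it was called without WT replicate 1 (0.00914) and without WT replicate 2 (0.00915). For Hoxc6 (chr15:102998257-103011881, ENSMUSG00000001661), a gene of the upper trunk, levels were 4.07 and 4.78 CPM in WT, 3.53 and 3.89 in clone 1, and 2.04 and 1.89 in clone 2. Both WT libraries lay above clone 1 and both clone 1 libraries above clone 2. Its log2 change was -1.21 ± 0.27 in clone 2 (adjusted p = 0.00506) and -0.75 ± 0.23 in the knockout mean (adjusted p = 0.021), and clone 1 was not called (-0.30 ± 0.25, adjusted p = 0.382). The difference between clones of -0.91 ± 0.24 missed the threshold (adjusted p = 0.0554) and passed it without WT replicate 1 (0.00991) and without WT replicate 2 (0.0100). Without WT replicate 2 neither the clone 2 call (0.0804) nor that of the knockout mean (0.31) held, the latter was also lost without clone 2 replicate 2 (0.0542), with DESeq2 (0.114) and with both clones as 1 group (0.177). Hoxa6, the other paralogue, stood at 1.36 and 2.16 CPM in WT and 1.85 to 2.07 in the knockout libraries and was not called.

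**Figure D4:**
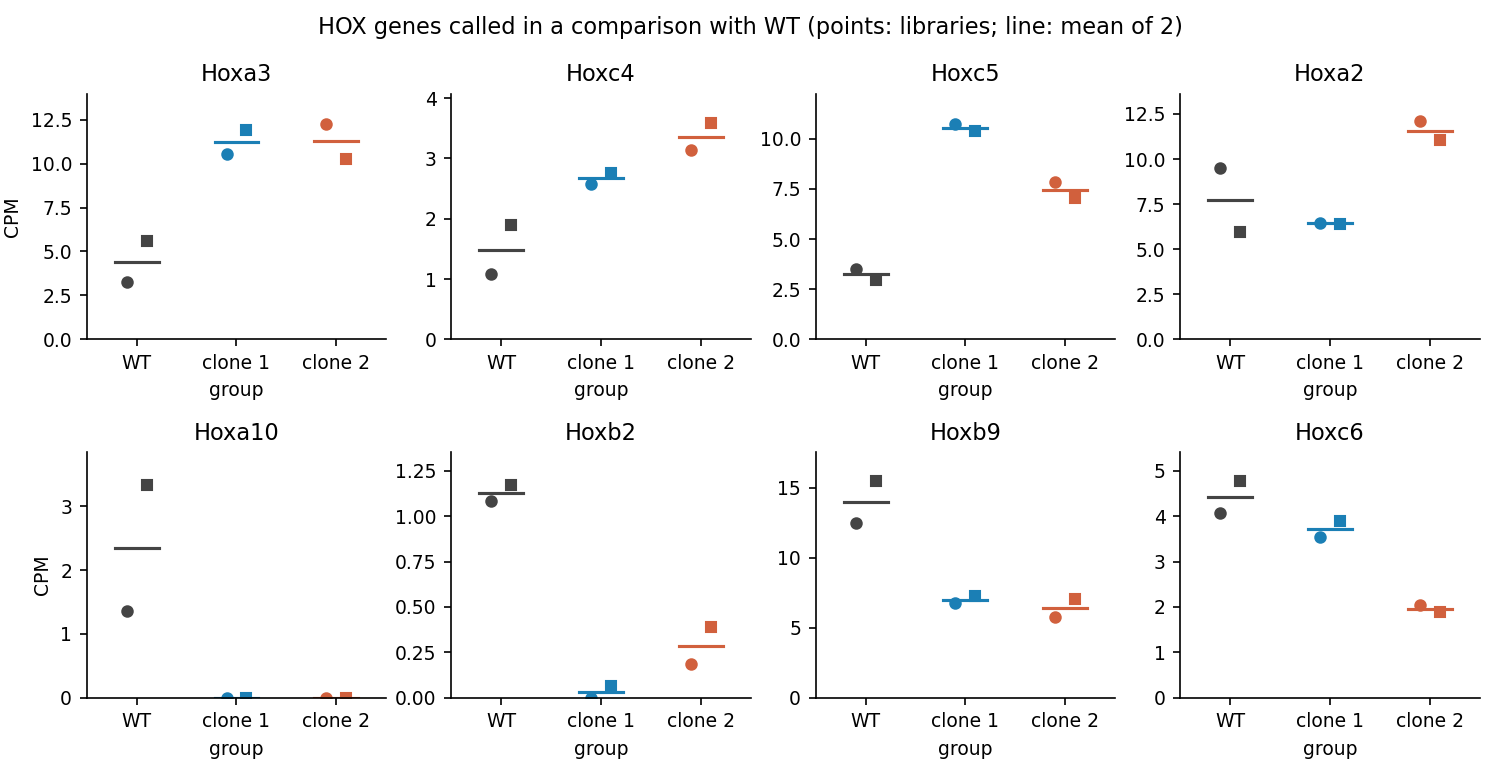
CPM of the 8 HOX genes called in any comparison, 1 panel a gene with its own axis from 0, circles for replicate 1, squares for replicate 2 and a line at the mean of 2. Hoxa3, Hoxc4 and Hoxc5 are higher and Hoxa10, Hoxb2, Hoxb9 and Hoxc6 lower in every knockout library than in both WT libraries, while Hoxa2 is set apart in clone 2.

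Hoxa10, a posterior gene that patterns the uterus and lumbar region (chr6:52231197-52240854, ENSMUSG00000000938), was detected in WT and in no knockout library. It had 5 and 37 counts in WT, or 1.36 and 3.33 CPM, and 0 in each of the 4 deeper knockout libraries. The pooled level was at least 63.7-fold lower in both clones together, at least 33.8-fold in clone 1 and at least 29.9-fold in clone 2, taking 3 counts over the group as the floor (adjusted p = 1.07e-05, 5.71e-05 and 1.01e-04). Since only WT carried it past the filter, these p-values add nothing to the levels themselves. Its posterior neighbours Hoxa11 and Hoxa13 and its anterior neighbour Hoxa9 were at 0 in WT as well, so it was the only active gene of that end of the cluster. The paralogue Hoxd10 had 1 and 4 counts in WT and 0 in every knockout library, at least 7.59-fold lower when pooled, but was too low to be tested. DESeq2 did not call Hoxa10 (adjusted p = 0.146, 0.234 and 0.266), and without WT replicate 2, which held 37 of the 42 counts, it failed the filter.

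Hoxb9, a posterior gene known from ribs and mammary gland (chr11:96271457-96276595, ENSMUSG00000020875), fell to about the same level in both clones. It stood at 12.5 and 15.5 CPM in WT, 6.76 and 7.28 in clone 1, and 5.80 and 7.03 in clone 2, and no knockout library reached either WT library. The log2 change was -1.10 ± 0.18 in the knockout mean (adjusted p = 3.52e-04), -1.03 ± 0.20 in clone 1 (adjusted p = 0.00171) and -1.16 ± 0.20 in clone 2 (adjusted p = 0.00107). Hoxd9, its only other tested paralogue, was at 30.1 and 25.3 CPM in WT, 21.9 and 20.7 in clone 1, and 24.1 and 23.1 in clone 2. Each knockout library was below both WT libraries there too, but the change of -0.28 ± 0.14 was not called (adjusted p = 0.127). On thinned counts the clone 1 call of Hoxb9 was just lost (adjusted p = 0.0516).

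Hoxb2 (chr11:96350525-96354012, ENSMUSG00000075588), a hindbrain gene of group 2, was low in WT and lower in the clones. Counts were 4 and 13 in WT, 0 and 1 in clone 1, and 3 and 6 in clone 2, which is 1.08 and 1.17 CPM, 0 and 0.0628, and 0.185 and 0.391. The ratio of pooled WT to clone level was 41.1 for clone 1 (95% counting interval 6.44 to 1720), 4.03 for clone 2 (1.70 to 10.3) and 7.74 for both (3.35 to 18.9). All 3 comparisons were called, with adjusted p = 6.60e-04, 0.0216 and 8.69e-04, whereas clone 2 against clone 1 was not (adjusted p = 0.144). As with Hoxa10, the gene was tested only because of its WT level, which favoured a lower call. The clone 2 call was lost when either clone 2 library was left out (adjusted p = 0.206 without replicate 1 and 0.0558 without replicate 2) and with DESeq2 (0.175), and without WT replicate 2 the gene failed the filter. With strand ignored it failed the filter too, and 27.3% of its exon length lies opposite Hoxb3os.

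The most abundant members were not called. Hoxd8 (chr2:74704615-74707933, ENSMUSG00000027102), a trunk gene, stood at 51.0 and 73.7 CPM in WT, 66.9 and 68.6 in clone 1, and 71.5 and 56.8 in clone 2. The WT libraries enclosed all 4 knockout libraries, and the change in the knockout mean was 0.05 ± 0.15 (adjusted p = 0.814). Hoxa7, the strongest of its cluster, was at 14.4 and 20.4 CPM in WT, 16.4 and 16.5 in clone 1, and 21.1 and 19.3 in clone 2, with overlapping groups. Hoxa4 was at 7.33 and 9.10 in WT and 6.78 to 9.13 in the knockouts. In all, 10 of the 18 tested members were called in no comparison, and these include 5 of the 8 tested Hoxa genes and both tested Hoxd genes. The share of all tested genes called in none of the 4 comparisons was not computed, so these counts have no background beside them.

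Transcripts that overlap or neighbour the clusters were read next to the HOX genes. Of the 46 further genes inside the clusters 9 were tested: Hotairm1, Gm27477, Hoxaas2, Gm15050, Hoxaas3, 5730596B20Rik, Gm53, Hoxb3os and Hoxd3os1. Only Gm15050, an antisense gene within the span of Hoxa3 that overlaps none of its exons, was called. Gm15050 stood at 1.63 and 3.60 CPM in WT and 1.07 to 1.76 in the knockout libraries (log2 -1.004 ± 0.325, adjusted p = 0.0281). Of all tested genes 34.8% were called in the knockout mean, 18.2% of them all as lower. The Gm15050 call rested on WT replicate 2, without which the log2 change was -0.11. DESeq2, no scaling factors and the fit of both clones as 1 group lost the call. It was also lost without clone 1 replicate 2 (0.0675) and clone 2 replicate 1 (0.0646). Opposite-strand reads were 0% to 41.5% of all reads over a tested HOX gene, with a median of 2.04%. Hoxb3 had the highest share, and no HOX gene with over 10 opposite-strand counts had more of them than sense counts.

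Beyond the clusters, the 3 nearest protein-coding genes on each side gave 24 genes, of which 20 were tested and 8 were called higher and 1 lower in the knockout mean (background 16.6% and 18.2%). Lnpk, on the Hoxd13 side, rose from 6.51 and 9.28 CPM in WT to 14.9 to 21.9 (log2 1.24 ± 0.20, adjusted p = 3.66e-04), and Cbx5, the gene of the heterochromatin protein HP1 alpha on the Hoxc4 side, rose from 180 and 273 to 364 to 555 (0.96 ± 0.18, adjusted p = 9.93e-04). Both were called under all 17 alternatives. Skap2, beyond the anterior end of Hoxa, fell from 36.1 and 44.1 CPM to 23.3 to 32.9 (-0.53 ± 0.13, adjusted p = 0.0073). The other called genes were Tax1bp1, Skap1 (only 2 counts over both WT libraries, tested through the knockout libraries alone), Snx11, Mtx2, Hnrnpa3 and Nfe2l2. Without WT replicate 2 the calls of Skap2 (adjusted p = 0.142), Skap1 (0.341), Snx11 (0.344) and Hnrnpa3 (0.212) were lost, and without WT replicate 1 those of Mtx2 (0.12) and Nfe2l2 (0.246). Snx11 lost its call without each knockout library, Mtx2 without clone 1 replicate 1 or clone 2 replicate 1, Hnrnpa3 without clone 1 replicate 2, and Nfe2l2 without clone 1 replicate 2 or either clone 2 library, at adjusted p of 0.0507 to 0.101. Correcting for GC content and length ended the calls of Tax1bp1 (0.156, with a log2 change of 0.25 against 0.66), Mtx2 (0.151) and Hnrnpa3 (0.0891), and DESeq2 did not call Skap1 (0.107) or Hnrnpa3 (0.0801).

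HOX proteins bind DNA together with TALE homeodomain cofactors, the Pbx, Meis and Pknox proteins. Of 9 such genes 8 were tested in the knockout mean, 2 were called higher and 0 lower (background 16.6% and 18.2%). Their median log2 change was -0.098 against 0.005 over all genes. DESeq2 and limma-voom each called 2 higher and 0 lower. At an unadjusted p below 0.05 there were 3 higher and 1 lower, and the share of all genes at that threshold was not computed. In clone 1 alone 2 were called higher (background 15.2%), and in clone 2 alone 0 (background 12.9%). Pbx3 rose from 8.41 and 13.5 CPM in WT to 14.98 to 20.5 in the knockout libraries (log2 0.65 ± 0.20, adjusted p = 0.0194). Pknox1 rose from 17.4 and 26.7 CPM to 29.0 to 35.4 (0.46 ± 0.16, adjusted p = 0.0425). In clone 2 alone neither Pbx3 nor Pknox1 was called (edgeR, adjusted p = 0.067 and 0.132). Meis1, Meis2 and Pbx2 were tested and not called. Without WT replicate 1 neither Pbx3 (adjusted p = 0.0719) nor Pknox1 (0.297) was called, and without WT replicate 2 their log2 changes were 1.13 and 0.87. Pbx3 also lost its call without clone 2 replicate 1 (0.0629) and when corrected for GC content and length (0.238), and Pknox1 without clone 1 replicate 1 (0.0788), clone 2 replicate 1 (0.1) and clone 2 replicate 2 (0.0641). The homeobox relatives outside the clusters, Evx1, Evx2, Gsx1, Gsx2, Pdx1, Cdx1, Cdx2 and Cdx4, had at most 13 counts each over the 6 libraries, and 0 of the 8 were tested.

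Polycomb genes, whose products keep HOX chromatin silent, had members called in each direction. Of 22 members 21 were tested, 7 were called higher and 4 lower in the knockout mean (background 16.6% and 18.2%), with a median log2 change of 0.106. The share called lower is near the background. DESeq2 called 7 higher and 2 lower, and limma-voom 5 and 4. Cbx7, a chromodomain subunit of PRC1, rose most, from 0.271 and 0.901 CPM in WT to 5.55 and 3.70 in clone 1 and 3.64 and 3.45 in clone 2 (log2 2.46 ± 0.40, adjusted p = 4.13e-04; 3.87 without WT replicate 2). Cbx7 had 1 and 10 counts in WT, and 1 WT library against 4 knockout libraries reached the filter level of 0.654 CPM. The knockout libraries thus carried Cbx7 past the filter, which favoured a higher call, so its call is no support for a direction. Suz12, a core subunit of PRC2, stood at 11.4 CPM in each WT library and 16.6 to 29.8 in the knockouts (1.09 ± 0.21, adjusted p = 0.00158). Bmi1, a PRC1 core subunit, went from 14.7 and 21.3 CPM to 32.7 to 44.8 (1.05 ± 0.18, adjusted p = 5.73e-04). Jarid2, which helps PRC2 bind its targets, fell from 10.9 and 10.5 CPM to 3.84 to 5.92 (-1.09 ± 0.21, adjusted p = 0.00119), and Phc2, a PRC1 polymerising subunit, from 287 and 221 to 162 to 196 (-0.53 ± 0.12, adjusted p = 0.00429; -0.34 without WT replicate 1). Cbx2, a chromodomain subunit of PRC1 like Cbx7, fell from 37.4 and 35.6 CPM to 25.8 to 30.8 (-0.38 ± 0.13, adjusted p = 0.0397) and lost its call without any single library except clone 1 replicate 1 (adjusted p = 0.0785 to 0.109). Correcting for GC content and length ended the calls of Phc2 (0.123) and Cbx2 (0.49) and brought Bmi1 to 0.69. Ezh2 and Eed, the catalytic and core partners of Suz12, were not called.

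**Figure D5:**
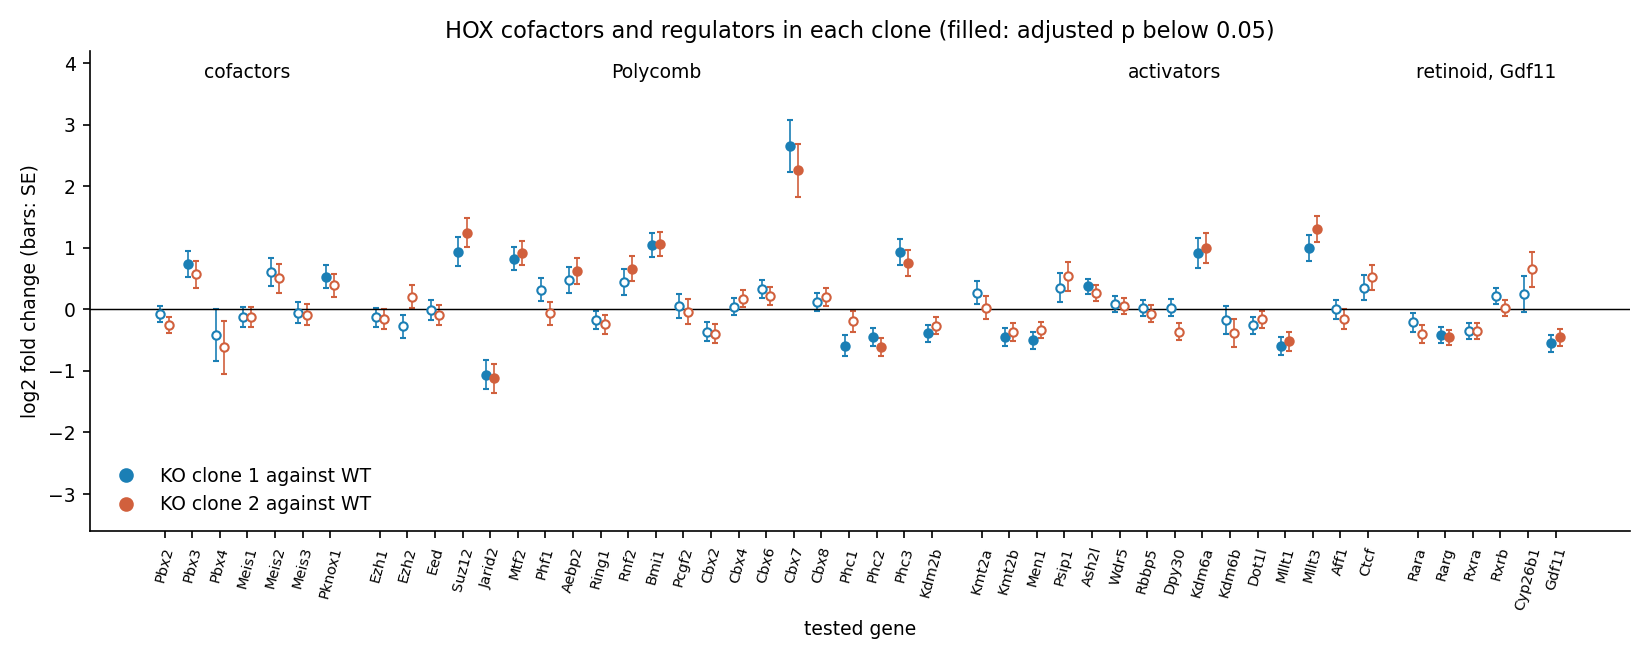
Log2 fold change with 1 SE of tested HOX cofactors, Polycomb genes, Trithorax-type activators and retinoid and Gdf11 genes in clone 1 (blue) and clone 2 (orange) against WT, filled at an adjusted p below 0.05. Cbx7 stands highest in each clone, and Jarid2 lies below 0 in both.

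Trithorax-type activators, which keep HOX genes on, numbered 15, all tested, of which 3 were called higher and 3 lower in the knockout mean (background 16.6% and 18.2%), with a median of -0.024. Both shares are near the background, and DESeq2 and limma-voom gave the same counts. Mllt3, an elongation factor subunit that reads acetylated and crotonylated histones, rose from 18.7 and 23.2 CPM in WT to 32.5 to 54.3 (log2 1.15 ± 0.19, adjusted p = 5.17e-04). Kdm6a, a demethylase of the Polycomb mark on histone H3, rose from 3.80 and 5.86 CPM to 8.63 to 11.1 (0.96 ± 0.22, adjusted p = 0.00436). Ash2l, a shared subunit of the histone methyltransferase complexes, stood at 108 and 115 CPM in WT and 128 to 149 in the knockouts (0.32 ± 0.11, adjusted p = 0.039). Mllt1 (-0.56 ± 0.13, adjusted p = 0.00424), Men1 (-0.42 ± 0.12, adjusted p = 0.0121), the gene of menin, and the methyltransferase gene Kmt2b (-0.41 ± 0.12, adjusted p = 0.0207) fell. Kmt2a, the founding activator of this group, was not called. Ash2l lost its call without any library except WT replicate 2 (adjusted p = 0.0798 to 0.164), Men1 without WT replicate 1 (0.079) and clone 1 replicate 2 (0.0508), and Kmt2b without WT replicate 1 (0.0561), clone 1 replicate 2 (0.0529) and clone 2 replicate 1 (0.0797), while Mllt1 was at -0.35 without WT replicate 1. Correcting for GC content and length ended the calls of Ash2l (0.599), Mllt1 (0.0845), Men1 (0.222) and Kmt2b (0.293).

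Retinoic acid and Gdf11 are signals that switch HOX genes on along the axis. Of 14 genes on this list 7 were tested, 0 were called higher and 4 lower in the knockout mean (background 16.6% and 18.2%), with a median of -0.35. DESeq2 and limma-voom each called 0 higher and 4 lower. At an unadjusted p below 0.05 there were 0 higher and 5 lower, and the share of all genes at that threshold was not computed. Gdf11, a TGF-beta family ligand of the trunk-to-tail transition, fell from 62.4 and 67.8 CPM to 43.3 to 51.7 (-0.50 ± 0.12, adjusted p = 0.00551). The retinoic acid receptor gene Rarg fell from 215 and 213 CPM to 149 to 170 (-0.44 ± 0.11, adjusted p = 0.00711), and correcting for GC content and length ended that call (0.243). The enzymes that make retinoic acid, Aldh1a1, Aldh1a2 and Aldh1a3, had 29, 2 and 1 counts over all libraries and were not tested.

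Regional transcription factors of mesenchyme outside the clusters are the last list. Of 30 members 12 were tested, 4 were called higher and 3 lower in the knockout mean (background 16.6% and 18.2%), with a median of 0.067. DESeq2 called 1 higher and 2 lower, and limma-voom 3 and 3. Foxf1, a forkhead factor of visceral mesenchyme, had, like Hoxa10, 0 counts in every knockout library, against 4.07 and 7.03 CPM in WT, at least 141-fold lower. It too passed the filter through WT alone, so its lower call (adjusted p = 4.15e-07) adds nothing to these levels. Lhx9 fell from 3.53 and 4.32 CPM to 1.56 to 2.77 (-0.80 ± 0.26, adjusted p = 0.0291), and Prrx1, a limb and craniofacial factor, from 47.2 and 67.02 to 28.4 to 43.4 (-0.63 ± 0.16, adjusted p = 0.00734). Shox2 (0.70 ± 0.23, adjusted p = 0.0299), Prrx2 (0.69 ± 0.14, adjusted p = 0.00143) and Tbx15 (0.52 ± 0.19, adjusted p = 0.0426), all expressed in limb mesenchyme, rose. Prrx2 differed between the clones (clone 2 against clone 1 -0.82 ± 0.14, adjusted p = 0.00379). That call did not hold with either clone 2 library left out, while its log2 change stayed within -0.89 to -0.76 over all alternatives. Clone by clone against WT, Prrx2 (log2 1.11), Prrx1 and Lhx9 were called in clone 1 only, Shox2 in clone 2 only and Tbx15 in neither. Prrx1 lost its call without WT replicate 2 (0.154, log2 -0.32), and Prrx2 with both clones as 1 group (0.0638). Lhx9 was not called without WT replicate 2 (0.346), clone 1 replicate 1 (0.0741), clone 2 replicate 1 (0.0582) and clone 2 replicate 2 (0.0566). Shox2 lost it without WT replicate 2 (0.0999), clone 1 replicate 2 (0.0725) and clone 2 replicate 2 (0.0759), and Tbx15 without WT replicate 1 (0.106), clone 1 replicate 2 (0.107) and clone 2 replicate 1 (0.145), with a log2 change of 0.78 without WT replicate 2. Of the genes named, DESeq2 ended the calls of Shox2 (0.0781), Tbx15 (0.0511) and Lhx9 (0.132), and limma-voom that of Tbx15 (0.0661).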

How the data were processed

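The 6 mouse NIH/3T3 libraries were stranded and made from total RNA after ribosomal depletion, per the labels' protocols. The submitters' processing notes name STAR 2.6.0c and GRCm38. The authors deposited raw counts per gene, without normalization, once ignoring strand and once per strand. Which annotation release they counted with was not given in the sources used here. Reverse-strand counts were used, and the rows that name no gene, 46.6% to 50.5% of each library, were left out. GENCODE M21 matched 54079 of 54146 identifiers.

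Genes were kept by filterByExpr (minimum count 10), scaled by TMM and fitted in edgeR 4.0.16 (R 4.3.3) with 1 coefficient per group over all 6 libraries, with 3 residual degrees of freedom. Against WT, 3 of the 4 contrasts took the mean of both clones, clone 1 or clone 2, and the last took clone 2 against clone 1. Adjusted p-values are Benjamini-Hochberg over all 13120 tested genes, called below 0.05, and SE is the size of the log2 change over the root of F. Values in brackets after a left-out library or another tool are adjusted p-values, unless named as log2. Replicates differed by more than sampling noise (chi-square per degree of freedom 13.6 in WT, 19.4 and 22.2 in the clones). Intervals, floors and bounds cover counting error only. Alternatives used DESeq2 1.42.0, limma 3.58.1, other filters, scalings and strands, thinned counts, GC and length correction, a replicate block and each library left out, where the lone library of a group is assumed to vary like the others. Members and lists were chosen with earlier results of these data known. Named genes are those over a mean of 1 CPM or called among the HOX genes, and up to 3 called members a direction in each list. Some genes that this rule names are not reported here. Motifs were searched in start-site windows from RefSeq (GRCm38.p6).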

Additional observations from a re-analysis of the deposited data

Results flagged for a closer look

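Hoxa2 was the 1 member whose effect differed between the clones by a test of the difference itself. Clone 2 exceeded clone 1 by 0.85 on the log2 scale (edgeR, adjusted p = 0.0319), with both clone 2 libraries at 11.1 and 12.1 CPM above the clone 1 libraries at 6.40 and 6.46. The WT libraries, at 9.50 and 5.95 CPM, lay further apart than those of either clone. Of all tested genes 3.54% were called between the clones. The Hoxa2 call was lost with DESeq2, without scaling factors and on thinned counts. With a replicate block or only the groups compared, Hoxb6 and Hoxc6 were called between the clones too.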

How the results depend on the processing

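In the knockout mean, Hoxa3, Hoxc5 and Hoxb9 were called in the same direction under all 17 alternatives. Hoxb2 was called under the 13 and Hoxa10 under 13 of the 14 at which they passed the filter. Both passed it through WT alone, which favoured a lower call, so these counts do not measure stability. Neither was tested on thinned counts, at a minimum count of 30 or without WT replicate 2. The member count fell from 7 to 4 with DESeq2 and 4 with thinned counts, in clone 1 from 5 to 2 when thinned and 3 at a minimum count of 30, and in clone 2 from 8 to 4 with DESeq2 and 3 when thinned. Fewer members were tested when thinned (14) and at the stricter minimum (15). Between clones the count of 1 became 0 without scaling, with DESeq2 and when thinned, 2 with strand ignored and with GC and length corrected, and 3 with no filter and with only the groups compared. With 1 library left out the counts ranged from 3 to 6 in the knockout mean, 3 to 5 in clone 1, 4 to 8 in clone 2 and 0 to 3 between clones. WT replicate 2 gave the lowest count in each comparison with WT. With a replicate block the counts were 7, 5, 8 and 3. Whether the shared replicate numbers pair the samples is not in the labels. Replicate deviations correlated at 0.267 between WT and clone 1, -0.0939 between WT and clone 2 and -0.113 between the clones, which does not settle it. Of the uncalled log2 changes, all 11 in the knockout mean, 7 of 13 in clone 1, 8 of 10 in clone 2 and 4 of 17 between clones crossed 0 under at least 1 alternative. Among them were those of Hoxa2 in the knockout mean (-0.13 to 0.54 with 1 library left out) and in clone 1 (-0.56 to 0.11), of Hoxd8 in the knockout mean (-0.16 without WT replicate 1 and -0.035 without clone 2 replicate 1, up to 0.38 without WT replicate 2), and of Hoxd9 with GC and length corrected (0.019). The cause of these changes was not tested. Without scaling factors the median of all genes moved to 0.082 in the knockout mean. Depth limits the members below about 1 CPM: 3 counts are 0.814 CPM in WT replicate 1 and 0.151 in the deepest library.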
